A study of Homo sapiens with 3 samples.

Results

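MYC was followed across 3 cell subpopulations of MCF10A, labelled basal, luminal and stem. It is 1 of the 110 endogenous genes on the panel and was chosen by its name in the raw count table, with the probe accession NM_002467.3. MCF10A is an immortalised, non-tumorigenic line of human breast epithelium. RNA was counted on the NanoString nCounter, which tallies single hybridised barcodes without amplification, with 1 library for each subpopulation. No treatment, genotype or age is labelled for any of the 3, all share the RNA concentration of 100 ng per microlitre, and the way the subpopulations were separated is not given in the sources used here. The study's title concerns cell states under the transcription factor Slug, and the question asked of MYC is whether its transcript level differs between those states.

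MYC encodes a basic helix-loop-helix leucine zipper transcription factor that pairs with MAX and binds E-box sites in DNA. It raises the transcription of genes for ribosome production, nucleotide synthesis and entry into the cell cycle, and its own mRNA is short-lived and responds to growth factor, Wnt and oestrogen signals. In the mammary gland it is known for a role in progenitor growth, and its locus is often gained in breast cancer. MCF10A itself is known to carry extra copies of that locus.

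The libraries differed widely in depth, with 9136 endogenous counts in luminal, 8891 in basal and 792367 in stem, so the error of each comparison comes from the luminal and basal counts. The 6 positive control probes, which count spiked RNA, differed too, with sums of 2795 in luminal, 776 in basal and 69670 in stem. Background, the mean plus 2 SD of the negative control probes, lay between 1 and 18.9 counts. The 8 luminal markers on the panel summed to 924 counts per 100 of the housekeeping mean in luminal, 919 in basal and 660 in stem. The 5 basal markers summed to 1496, 1606 and 1280 in the same order, and the 2 mesenchymal markers to 128, 173 and 110. These mesenchymal sums were nearly all VIM, at 127, 171 and 109, while ZEB1 had 2, 2 and 85 raw counts. Of the basal markers, KRT14 stood at 343, 477 and 333, KRT5 at 704, 775 and 475, and EGFR at 26.1, 33.8 and 34.7. KRT17 stood at 387, 289 and 382 and CDH3 at 35.5, 31.3 and 54.4, both lower in basal than in luminal. The luminal sums were nearly all KRT8, a luminal keratin gene, which stood at 898, 909 and 648. CD24, another luminal marker, stood at 15.2 per 100 in luminal and at 3.38 in basal and 5.75 in stem. The luminal library held 6 counts of EPCAM, while basal gave the lowest listed value, 1. Per 100 of the housekeeping mean, EPCAM stood at 4.35 in luminal and 3.50 in stem. Of the luminal markers, KRT19, GATA3, ESR1 and PGR were listed at 1, the lowest value in the table, in both the luminal and the basal library. None of the listed stem or progenitor, fibroblast, endothelial or immune markers was on the panel, so a part of other cell types in these values was not tested.

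MYC was well above background in every library. Its raw count was 94 in luminal, with an exact Poisson 95% interval of 76.0 to 115. In basal the count was 95 (76.9 to 116). In stem it was 10297 (10099 to 10498). The highest negative control probe had 2, 1 and 14 counts in that order, and the luminal MYC count was 47 times as high as it. These intervals, and all those below, cover counting error only, not the spread between samples, which 1 library a group cannot give.

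The main scale was set in each library by 5 housekeeping genes (SF3A1, RPLP0, PSMC4, MRPL19 and ACTB), through their geometric mean. On it the level of MYC was 68.1 per 100 in luminal (55.0 to 83.4). It was 80.3 per 100 in basal (64.9 to 98.1) and 80.2 per 100 in stem (78.6 to 81.7). From lowest to highest the order was luminal, stem, basal. The 3 intervals overlapped, and no pair, luminal and basal included, differed beyond counting error. The authors' deposited log2 values of MYC were -0.55, -0.32 and -0.32 in the order luminal, basal and stem, and equalled the log2 of these levels.

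**Figure D1:**
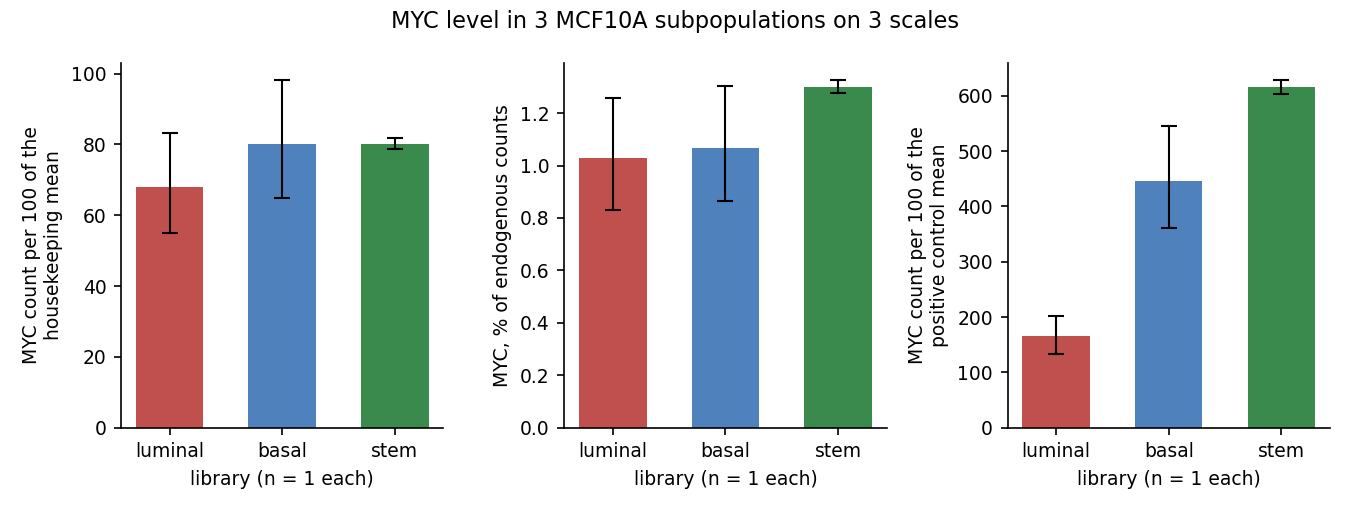
MYC level in the luminal, basal and stem libraries (n = 1 each) as bars with 95% counting intervals, per 100 of the housekeeping mean, as a percentage of endogenous counts, and per 100 of the geometric mean of the 6 positive control probes. The libraries lie between 68.1 and 80.3 on the housekeeping scale, and between 166 and 616 on the positive control scale.

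MYC was among the more strongly counted genes of the panel in each library. It took rank 13 of 110 by raw count in luminal, rank 14 in basal and rank 15 in stem. Its counting interval allowed ranks of 11 to 16 in the luminal, 13 to 18 in the basal and 13 to 15 in the stem library, so the ranks did not separate the libraries. The gene directly above MYC was PHGDH, an enzyme of serine synthesis, with 96 counts in luminal. In basal it was TYMS, thymidylate synthase, with 101 counts, and in stem CDC20, an activator of the anaphase-promoting complex, with 10415. Directly below were CDC20 with 88 counts in luminal, the protease inhibitor gene SPINT2 with 93 in basal, and the mitotic cyclin gene CCNB1 with 9589 in stem. Probes differ in how well they capture their target, so a rank is a place among probe counts and not a ranking of transcript abundance.

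**Figure D2:**
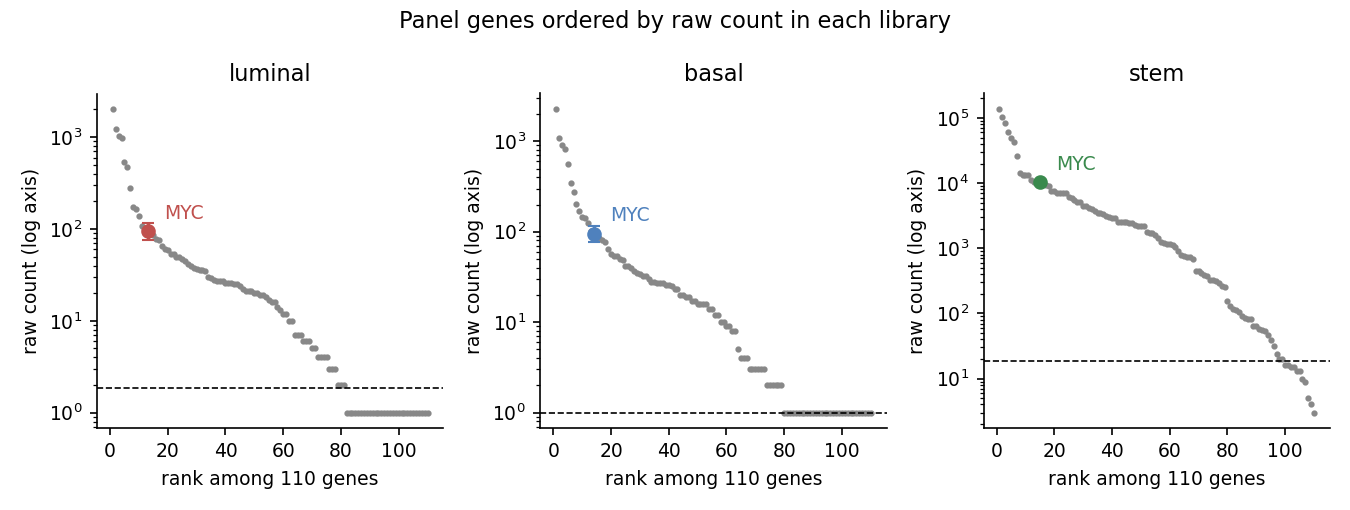
Raw counts (log axis) of the 110 panel genes ordered from highest to lowest in each library, with MYC coloured and its 95% counting interval, and background as a dashed line. MYC sits at rank 13 in luminal, 14 in basal and 15 in stem.

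As a share of all endogenous counts MYC made up 1.03% in luminal (exact binomial 95% interval 0.83 to 1.26), 1.07% in basal (0.87 to 1.30) and 1.30% in stem (1.27 to 1.32). The stem interval lay just above that of luminal and overlapped that of basal. The 6 most abundant genes, RPLP0, ACTB and the keratin genes KRT8, KRT5, KRT14 and KRT17, held 68.7% of the counts in luminal, 67.7% in basal and 60.4% in stem. Of the counts outside these 6, a denominator chosen once the data had been seen, MYC made up 3.29% in luminal (2.67 to 4.01), 3.31% in basal (2.69 to 4.03) and 3.28% in stem (3.22 to 3.34). On that denominator the stem library no longer stood above luminal.

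Between basal and luminal, MYC had a log2 ratio of 0.24 (-0.19 to 0.66) on the housekeeping scale, a 1.18-fold higher level with an interval of 0.88 to 1.58. Without SF3A1 in the housekeeping mean that log2 ratio was 0.0074. For stem over luminal the log2 ratio was 0.23 (-0.06 to 0.54), or 1.18-fold (0.96 to 1.46). For stem over basal the log2 ratio was -0.0017 (-0.29 to 0.31), with folds from 0.82 to 1.24 inside the interval. The size rule was a difference of at least 2-fold with an interval excluding 1. On the housekeeping scale MYC thus did not pass it in any of the 3 pairs, and the intervals all ended short of 2-fold. That rule was passed by 2.38% of 84 genes for basal over luminal, 4.04% of 99 for stem over luminal and 3.03% of 99 for stem over basal. An interval excluding 1 at any size was found for 16.7%, 25.3% and 25.3% of genes in the same order, and not for MYC. When the counting error of the housekeeping genes was added by a normal approximation, the fold of MYC ranged from 0.83 to 1.67, from 0.92 to 1.498 and from 0.77 to 1.29.

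The order of the genes' ratios does not depend on the scale, and MYC stood near its middle. For basal over luminal it held place 32 of 84 from the top, with a range of 12 to 56 by its counting interval. For stem over luminal it held place 44 of 99 (19 to 60), and for stem over basal place 54 of 99 (32 to 67). The median log2 ratio of all genes compared was 0.14, 0.12 and 0.04 in the 3 pairs.

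**Figure D3:**
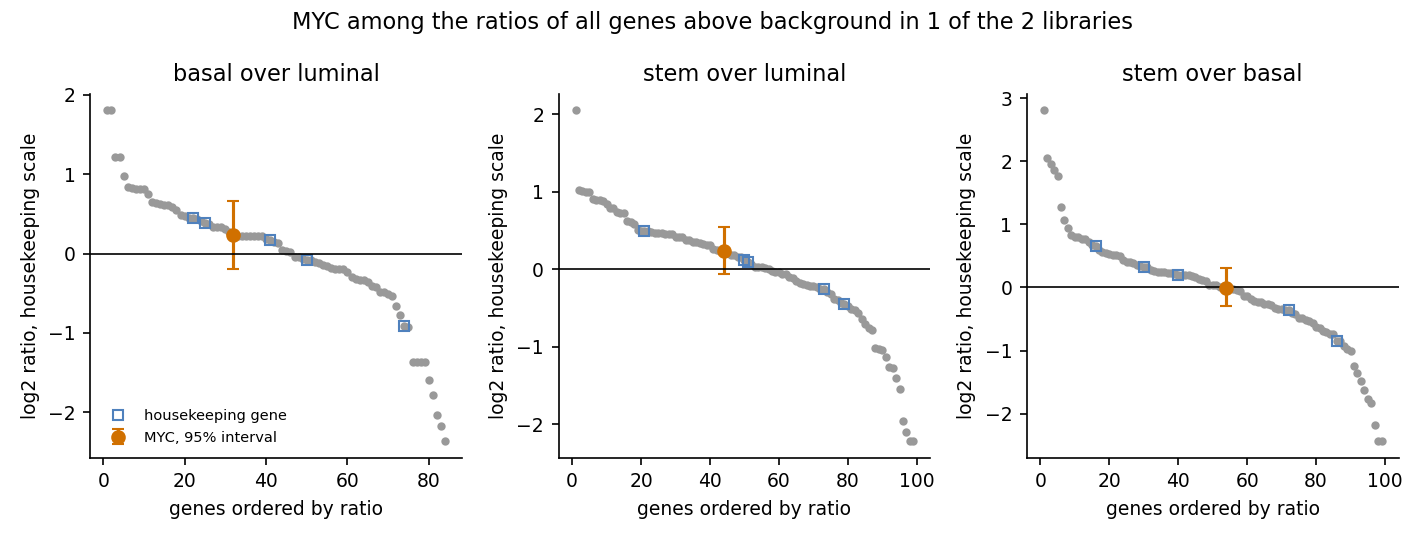
Log2 ratios on the housekeeping scale of all genes above background in at least 1 library of each pair, ordered from highest to lowest, with MYC and its 95% counting interval in orange and the housekeeping genes as squares. MYC lies at place 32 of 84, 44 of 99 and 54 of 99.

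The ratio of MYC moved with the gene it was divided by. Per 100 counts of ACTB, which encodes beta-actin, MYC had 9.21 counts in luminal (7.37 to 11.4), 11.5 in basal (9.18 to 14.2) and 9.95 in stem (9.75 to 10.1). Per 100 counts of RPLP0, a ribosomal protein gene, it had 4.61 (3.71 to 5.67), 4.14 (3.34 to 5.09) and 7.42 (7.27 to 7.57). Stem was therefore above both other libraries when MYC was set against RPLP0 and between them when it was set against ACTB. Against RPLP0 alone, the log2 ratio of MYC in stem was 0.69 over luminal (0.39 to 1.002) and 0.84 over basal (0.54 to 1.15). The other 4 housekeeping genes, taken singly, gave intervals that included 0 in all 3 pairs. They ranged from -0.21 with PSMC4, a proteasome subunit gene, to 1.15 with the splicing factor gene SF3A1 for basal over luminal, where SF3A1 had 10 counts in basal and 22 in luminal.

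The positive control probes, spiked RNA of set amount, gave another picture. Per 100 of their geometric mean MYC had 166 counts in luminal (134 to 203), 446 in basal (361 to 546) and 616 in stem (604 to 628). These intervals did not overlap, but they and the ratio intervals below hold the probe mean fixed and leave out its own counting error. The log2 ratio of basal to luminal was then 1.43 (1.003 to 1.86), that of stem to luminal 1.89 (1.60 to 2.20) and that of stem to basal 0.46 (0.17 to 0.77). With probes A to D alone the last of these was 0.12 (-0.17 to 0.43), while the first and second rose to 1.89 and 2.01. Both ratios over luminal thus passed the size rule with either set of probes. With all 6 probes the median log2 ratio of all genes compared was 1.34 for basal over luminal and 1.78 for stem over luminal. This scale adds 1.19, 1.66 and 0.47 to every gene alike, and relative to that shift MYC is where it was. Spikes track the handling of each lane but not how much sample RNA went into it, and the part of RNA input in this difference was not tested.

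**Figure D4:**
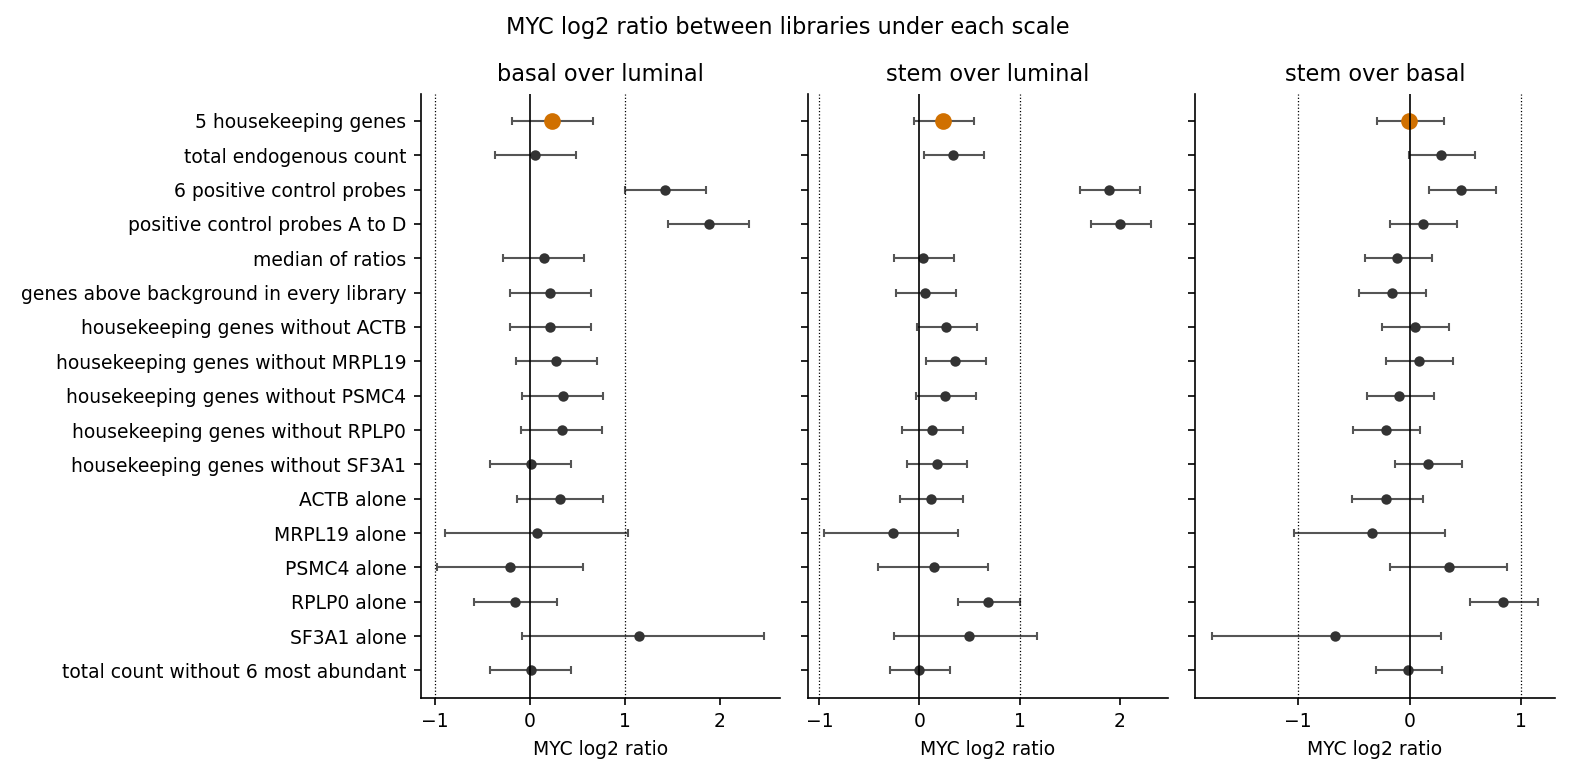
MYC log2 ratio with its 95% counting interval for each pair of libraries under 17 scales, the main scale in orange, with solid lines at 0 and dotted lines at 2-fold. Basal over luminal and stem over luminal exceed 1 with both sets of positive controls, and elsewhere only with SF3A1 alone for basal over luminal.

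Setting each gene against MYC within its library removes the scale between libraries. Of the 83 other genes compared between basal and luminal, 0% were higher and 3.61% lower against MYC in basal with an interval excluding no change. The 3 were CD24, a surface glycoprotein, at a log2 change of -2.41 (-4.45 to -0.76), ESRP1, an epithelial splicing regulator, at -2.26 (-4.32 to -0.59), and the keratin gene KRT17 at -0.66 (-1.13 to -0.18). For the other 80 genes the ratio to MYC did not differ beyond counting error. Basal counts of CD24 and ESRP1 were only 4 each. Among the 57 genes with at least 10 counts in both libraries the shares were 0% and 1.75%.

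Between stem and luminal, 5.1% of 98 genes were higher and 8.16% lower against MYC in stem. Of the 98, 18 were listed at 1 in luminal, and among the 62 genes with at least 10 counts in both libraries the shares were 8.06% higher and 12.9% lower. The 5 higher genes were led by BIRC5, which encodes survivin, at 0.77 (0.21 to 1.36), the cell-cycle transcription factor gene MYBL2 at 0.77 (0.06 to 1.54) and FABP5, a fatty acid binding protein gene, at 0.67 (0.06 to 1.31). The lower genes were led by CD24 at -1.64 (-2.34 to -0.87), the lipoprotein lipase inhibitor gene ANGPTL4 at -1.28 (-1.93 to -0.59) and KRT5 at -0.80 (-1.12 to -0.49).

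Between stem and basal, 8.16% of 98 genes were higher and 8.16% lower against MYC in stem. Here 20 of the 98 were listed at 1 in basal, and the shares among the 58 genes with at least 10 counts in both libraries were 12.1% and 13.8%. ESRP1 had the largest rise at 2.82 (1.41 to 4.72), then FABP5 at 1.06 (0.39 to 1.79) and RRM2, a subunit of ribonucleotide reductase, at 0.95 (0.44 to 1.47). The lowest were GNG11, a G protein subunit gene, at -0.85 (-1.49 to -0.18), RPLP0 at -0.84 (-1.15 to -0.54) and KRT5 at -0.70 (-1.02 to -0.40). All 3 pairs share libraries, so a gene seen in more than 1 pair is not a repeated observation.

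Of 13 genes of the network around MYC and MAX, only MYC was on the panel, and of 17 pluripotency and mammary stem or progenitor genes again only MYC. Signals that feed into MYC were represented by 9 of 18 listed genes. EGFR, the receptor for epidermal growth factor, had 38.3 counts per 100 of MYC in luminal, 42.1 in basal and 43.2 in stem. MET, the receptor for hepatocyte growth factor, had 53.2, 56.8 and 56.7. SFRP1, a secreted antagonist of Wnt, had 28.7, 28.4 and 33.4. These 3 were the inputs with at least 10 counts in every library, and their intervals of the change against MYC included 0 in every pair. ERBB2 had 4 counts in luminal, and ERBB3, ERBB4, FGFR4 and the hormone receptor genes ESR1 and PGR were listed at 1 in both shallow libraries, so nothing could be read from them there.

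Genes known to be induced by MYC were represented by 10 of 32 listed, 3 of which, RPLP0, PSMC4 and SF3A1, belong to the housekeeping scale. None of the 10 changed against MYC between basal and luminal, where 0% of the 83 other genes compared were higher and 3.61% lower. For stem over luminal 2 were higher, BIRC5 and RRM2, 1 was lower, RPLP0, and 7 had intervals that included no change. For stem over basal RRM2 was higher, CCNB1 and RPLP0 were lower, and 7 were not separable. These counts stand beside 5.1% higher and 8.16% lower of the 98 other genes for stem over luminal, and 8.16% and 8.16% for stem over basal. Of the 9 list genes with at least 10 counts in both libraries, 22.2% were higher and 11.1% lower for stem over luminal. All such genes gave 8.06% and 12.9%. For stem over basal the list gave 11.1% and 22.2%, beside 12.1% and 13.8% of all such genes. The medians of the list were 0.18, 0.13 and 0.07, beside -0.10, -0.13 and 0.04 for all genes compared. With at least 10 counts in both libraries they were 0.21, 0.11 and -0.03, beside -0.02, 0.002 and 0.13 for all such genes. RRM2 had 64.9 counts per 100 of MYC in luminal, 52.6 in basal and 102 in stem, so stem was above both. RPLP0 went the other way, with 2170, 2413 and 1348 counts per 100 of MYC. CCNB1 had 115, 151 and 93.1, highest in basal, though its change against MYC for basal over luminal was 0.39 (-0.18 to 0.96). Only its interval for stem over basal, at -0.69 (-1.08 to -0.31), excluded 0. CDC20 had 93.6, 90.5 and 101, and PHGDH 102, 133 and 130, with intervals of the change against MYC that included 0 in every pair. The 1 gene on the panel known to be repressed by MYC, the stress-response gene NDRG1, had 50.0, 33.7 and 42.7 counts per 100 of MYC, with log2 changes of -0.57 (-1.39 to 0.24), -0.23 (-0.75 to 0.31) and 0.34 (-0.25 to 0.97) in the order of the pairs above.

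**Figure D5:**
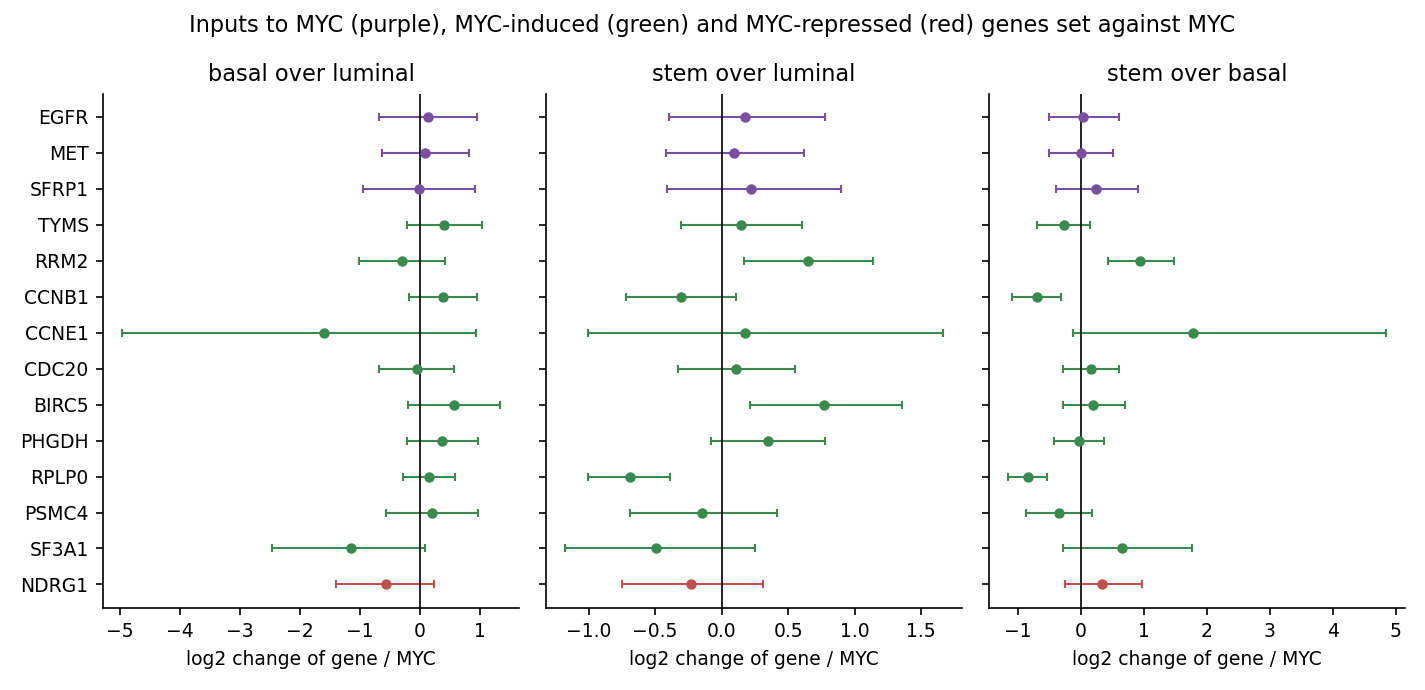
Log2 change in the ratio of gene to MYC, with 95% counting intervals, for the 14 genes of the input, induced and repressed lists that had a bounded interval in every pair. RRM2 lies above 0 and RPLP0 below 0 in both comparisons with stem.

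The proliferation list held 21 of 23 genes on the panel. It shares TYMS, RRM2, CCNB1, CCNE1, CDC20 and BIRC5 with the induced list, so the 2 lists are not separate observations. Against MYC, 0 of the 21 changed between basal and luminal beyond counting error, beside 0% higher and 3.61% lower of the 83 other genes compared. The median of the 21 was 0.32 beside -0.10 for all genes. Between stem and luminal 4 were higher, BIRC5, CENPF, MYBL2 and RRM2, and 0 lower, with a median of 0.18 beside -0.13 for all genes. Between stem and basal RRM2 was higher and CCNB1 lower, with a median of 0.04 beside 0.04 for all genes. Among the 19 proliferation genes with at least 10 counts in both libraries, 21.1% were higher for stem over luminal. All genes with that many counts gave 8.06%. For stem over basal the shares were 5.26% and 12.1%. The median of these 19 genes was 0.15 between stem and luminal, beside 0.002 for all genes with that many counts. Between stem and basal the 19 fell below all such genes, at 0.007 beside 0.13. Their median between basal and luminal stayed at 0.32, beside -0.02. MKI67, the usual proliferation marker, had 17.0, 14.7 and 16.7 counts per 100 of MYC in luminal, basal and stem, from 16, 14 and 1719 counts.

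The genes whose pattern over the 3 libraries was most like that of MYC were found by the root mean square difference of centred log2 levels, which does not depend on the scale, among 57 genes with at least 10 counts in every library. They were KIF2C, a mitotic kinesin gene (0.039), MET (0.044), CDC20 (0.067), EGFR (0.075) and PNP, a gene of purine salvage (0.091). The median over the 57 genes was 0.22 and the largest value 0.52. KIF2C had 21, 20 and 2179 counts in luminal, basal and stem, and its change against MYC for basal over luminal was -0.09 (-1.15 to 0.97). MET had 50, 54 and 5840 counts, with a change of 0.10 (-0.64 to 0.83). Such wide intervals mean that the order among these genes was not resolved at this depth.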

How the data were processed

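The authors deposited raw barcode counts per probe, with no normalization, per the file headers. They also deposited log2 values for 105 genes, which equalled log2 of the raw count over the geometric mean of the 5 housekeeping genes, with a largest difference of 3.53e-09 (tested on the values). Other steps are not given in the sources used here beyond the manufacturer's protocol, per the labels, which also name an RNA kit for fixed tissue. Raw counts were used here. Ratios between libraries have exact conditional Clopper-Pearson 95% intervals, and changes of a gene against MYC exact conditional odds ratio intervals. A listed 1 was read as 0 or 1. With 1 library a group there is no test and no p-value. Alternatives were 17 scales in all, 2 other gene filters, an interval that misses 0.1% of the time, subtraction of the negative controls and the deposited log2 values. Named genes were MYC, the housekeeping genes, members of 6 lists, the neighbours of MYC in rank, the 5 most like it and up to 3 genes a direction with the largest change against it. MYC and the lists were chosen with earlier results of these data known. Of 110 probe accessions, 109 matched RefSeq annotation of the human genome. MYC has 2 transcripts there, and which of them the probe counts was not analysed here. Intervals were tested on counts drawn at random with known changes. Tools were Python 3.11.15, numpy 2.4.6, pandas 2.3.3, SciPy 1.17.1 and matplotlib 3.10.9.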

Additional observations from a re-analysis of the deposited data

How the results depend on the processing

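The sign and size of the MYC ratios depended on the scale. On the scale of all 6 positive controls the log2 ratio of basal to luminal was 1.43, that of stem to luminal 1.89 and that of stem to basal 0.46, and with probes A to D the first and second were 1.89 and 2.01. With single housekeeping genes, basal over luminal came to -0.21 with PSMC4 and 1.15 with SF3A1. Stem over luminal came to -0.26 with MRPL19 and 0.69 with RPLP0. Stem over basal came to -0.33 with MRPL19, 0.35 with PSMC4, 0.84 with RPLP0 and -0.66 with SF3A1. All other scales stayed within the counting interval of the ratios reported, although for stem over luminal the interval excluded 0 with the total count (0.34, 0.04 to 0.65) and without MRPL19 (0.36, 0.07 to 0.67). Leaving out 1 housekeeping gene moved basal over luminal between 0.0074, without SF3A1, and 0.35, stem over luminal between 0.12 and 0.36, and stem over basal between -0.21 and 0.16. A change of scale adds the same amount to every gene's log2 ratio, so the median of all genes moved with MYC by construction. With the housekeeping genes left out, MYC ranked 11 in luminal, 12 in basal and 13 in stem. With intervals that miss 0.1% of the time, the genes that changed against MYC numbered 0, 5 and 6 in these pairs, in place of 3, 13 and 16, and with at least 10 counts in both libraries 1, 13 and 15. The cause of these shifts was not tested. Depth limits the comparisons through the luminal and basal counts of 94 and 95. No paired analysis was possible because each subpopulation has 1 library.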
